A study of Mus musculus with 4 samples.

Results

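Klf15 and 9 genes known from the response to glucocorticoids or fasting, namely Fkbp5, Tsc22d3, Zbtb16, Pdk4, Sgk1, Mt1, Mt2, Cebpd and Errfi1, were followed in single mice. The tissue was BAT of 4 male Tg mice, 2 given vehicle and 2 given AP, and each mouse had its own one-color Agilent array. The 10 genes were chosen by name, from measured values of this same comparison of AP with vehicle that were already known, so their differences between the groups are described here and carry no p. They are 10 of 12788 named genes that could be compared, out of 20141 named genes with a spot on the array. Each of the 10 genes has 1 probe, and each probe was well above background on all 4 arrays.

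All 4 mice carried the maP2-Fv2E-PERK transgene. Fv2E-PERK is the eIF2α kinase domain of PERK joined to an artificial dimerization domain, and the ligand AP20187 (AP) brings the fusion protein together and switches the kinase on, which starts the integrated stress response (ISR). The mouse aP2 (Fabp4) promoter drives the transgene in adipocytes, and this promoter is also active in monocytes and macrophages. The line was made in the C57/BL6N strain, and no wild-type mice were among the samples used here. The mice were 8 weeks old and BAT was collected 12 h after an intraperitoneal injection of AP or vehicle. The sample labels give the dose of AP as 1 ng/g and the study's legend gives 0.05 mg/kg. The methods place injections between 8 and 11 AM. Whether the mice had eaten before collection, and their plasma corticosterone, are not given in the sources used here. Fewer cells of a type and less RNA per cell cannot be told apart in a whole tissue.

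Glucocorticoids are adrenal steroids that enter cells and bind the glucocorticoid receptor, which is held ready by HSP90 and its cochaperones. The bound receptor moves to the nucleus and binds glucocorticoid response elements (GREs), pairs of inverted half-sites, near genes such as Fkbp5, Tsc22d3 and Zbtb16. During fasting, glucocorticoids act together with low insulin and with fatty acid sensors to raise enzymes such as PDK4, which turns cells from glucose to fat as fuel. KLF15 is a zinc finger transcription factor that rises in fasting and with glucocorticoids and is best known as a regulator of amino acid breakdown, gluconeogenesis and glucose transport.

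The signal is given throughout as log2 of the spot's intensity minus log2 of the 75th percentile of its own array, so that a step of 1 is 2-fold. Between 46.4% and 49.0% of spots were well above background on the 4 arrays. All arrays were on 1 slide and in 1 scan, and treatment cannot be told apart from where an array lay on that slide. All 7 brown adipocyte markers were measured. Ucp1, the uncoupling protein of brown fat, stood at 9.66 to 10.41 in the 4 mice. Elovl3, an elongase of fatty acids, varied between −1.07 in vehicle replicate 2 and 6.08 in vehicle replicate 1, and Dio2, which activates thyroid hormone, between −1.78 in AP replicate 1 and 3.33 in AP replicate 2. The ISR targets Ddit3 and Trib3 were higher in both AP-treated mice than in both vehicle-treated mice. Ddit3 stood at 2.18 and 1.86 with vehicle and at 3.03 and 4.22 with AP. Trib3 stood at 2.78 and 2.33 with vehicle and at 6.26 and 8.01 with AP, and in both cases AP replicate 2 had more than AP replicate 1. In limma with Benjamini-Hochberg adjustment at 0.05, 0 of 24973 probes differed between the groups, a share of 0%, while 1515 had an unadjusted limma p under 0.05. With 2 mice against 2, an exact permutation test of a single value cannot go below p = 0.333.

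Klf15 was high in both AP-treated mice and low in both vehicle-treated mice. Its signal was 0.52 in vehicle replicate 1, 0.69 in vehicle replicate 2, 2.39 in AP replicate 1 and 2.59 in AP replicate 2. The groups did not overlap, and the lower AP-treated mouse was 1.70 above the higher vehicle-treated mouse. The means were 0.60 ± 0.12 and 2.49 ± 0.14 (SD, n = 2 mice each). The difference was 1.89 with a standard error of 0.22, or 3.70-fold, and it ranked 43 by size of rise among the 12788 named genes. Standard errors of differences are from the limma fit, which draws each probe's variance toward a value common to all probes. From a gene's own 4 values alone, the standard error would be 0.13 for Klf15, 1.07 for Fkbp5 and 1.40 for Mt2. The mice of a group were 0.17 apart with vehicle and 0.20 apart with AP. Klf15 was the only one of the 10 genes with its highest signal in AP replicate 2.

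The sequence before the start of Klf15 is shown because its regulatory letters can be read beside its level. RefSeq places the start on the plus strand of chromosome 6 in GRCm38.p6. Windows of 250 bases before to 50 bases after each annotated start were searched on both strands for the E-box CACGTG, a palindrome bound by basic helix-loop-helix factors of the clock, MYC and USF groups. The Klf15 window holds 3 E-boxes, and 7.15% of 32851 mouse promoter windows hold at least 1. Capitals mark the E-boxes in the 250 bases before the start, and the last capitals are the first letters of a copy that runs across the start.
Klf15, chr6:90462326-90462575: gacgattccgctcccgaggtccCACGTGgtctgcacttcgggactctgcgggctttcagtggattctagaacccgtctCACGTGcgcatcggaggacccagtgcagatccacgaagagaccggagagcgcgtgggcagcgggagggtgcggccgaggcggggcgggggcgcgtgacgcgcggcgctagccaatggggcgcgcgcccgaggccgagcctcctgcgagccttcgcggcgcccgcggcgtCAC
Fkbp5 has 1 E-box in its window and Sgk1 has 1. The window of Klf15 holds no GRE half-site, the letters AGAACA, which says only that these letters are not in this window. A match is a description of the letters and not of binding.

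Fkbp5, the FK506-binding cochaperone that restrains the glucocorticoid receptor and is itself a well-known target of it, was high in a single AP-treated mouse. Its signal was 1.01 in vehicle replicate 1, 0.64 in vehicle replicate 2, 3.11 in AP replicate 1 and 1.01 in AP replicate 2. AP replicate 2 was above vehicle replicate 1 by 0.0013, so the groups were apart by next to nothing. Against the vehicle mean of 0.83 ± 0.27 (SD, n = 2), AP replicate 1 was 2.29 higher, or 4.88-fold, and AP replicate 2 was 0.19 higher. The mean difference of 1.24 had a standard error of 0.73. The AP-treated mice were 2.10 apart on the log2 scale, which is more than the difference between the groups.

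Tsc22d3 encodes GILZ, a leucine zipper protein through which glucocorticoids dampen inflammation. Its signal was 3.92 and 3.88 with vehicle, 4.91 in AP replicate 1 and 3.54 in AP replicate 2. AP replicate 1 was above both vehicle-treated mice and AP replicate 2 was below both, by 1.01 and 0.36 on either side of the vehicle mean. The mean difference was 0.32 with a standard error of 0.50.

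Zbtb16 encodes PLZF, a zinc finger repressor that glucocorticoids induce in many tissues. Its signal was 2.71 and 1.06 with vehicle, and 3.71 and 2.61 with AP. The vehicle-treated mice were far apart, and AP replicate 2 lay between them. AP replicate 1 was the highest of the 4 mice and exceeded AP replicate 2 by 1.10. The difference between the groups was 1.27 with a standard error of 0.69.

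**Figure D1:**
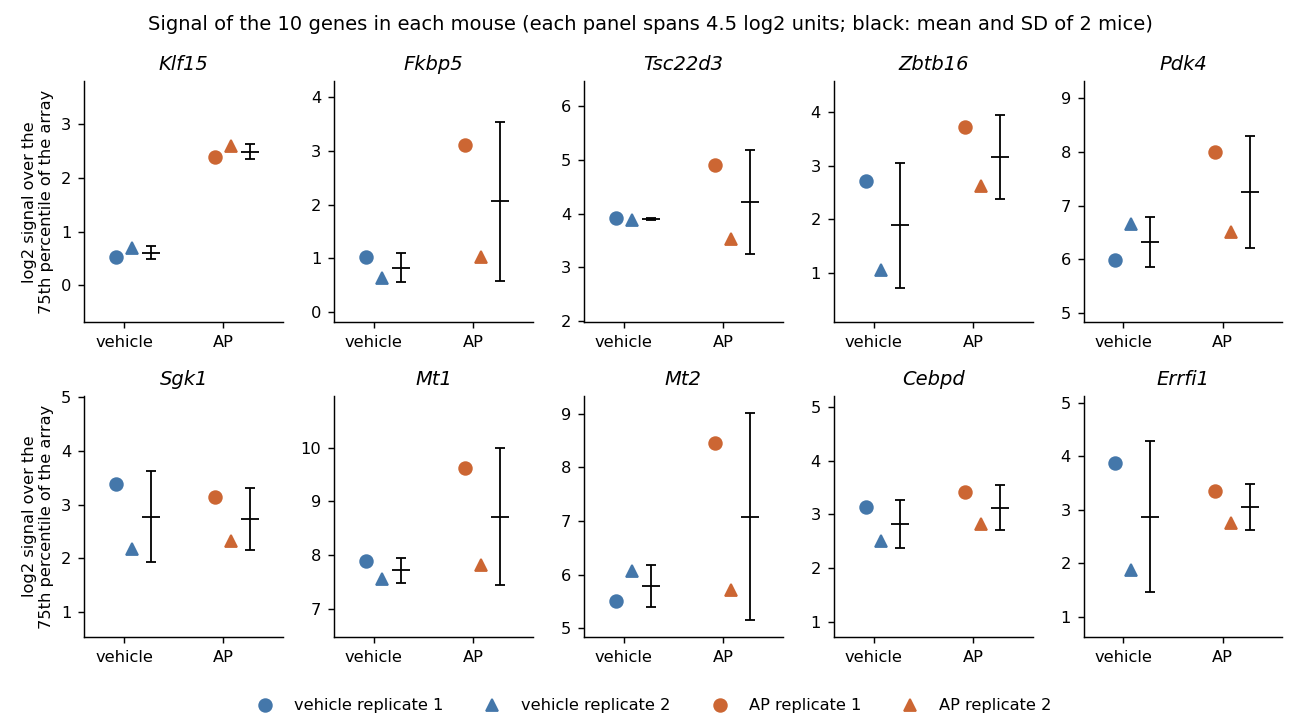
Log2 signal over the 75th percentile of the array for the 10 genes, 1 panel for each gene, with 1 point for each mouse and the mean and SD of 2 mice per group in black. Klf15 separates the groups by 1.70, while Fkbp5, Tsc22d3, Zbtb16, Pdk4, Mt1, Mt2 and Cebpd are highest in AP replicate 1 and Sgk1 and Errfi1 in vehicle replicate 1.

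Pdk4, the kinase that shuts off pyruvate dehydrogenase and so spares glucose in fasting, had a signal of 5.98 and 6.65 with vehicle, and 7.99 and 6.51 with AP. AP replicate 1 stood above the other 3 mice, and AP replicate 2 lay between the vehicle-treated mice. The distance from the vehicle mean was 1.68 for AP replicate 1 and 0.20 for AP replicate 2. The difference between the groups was 0.94 with a standard error of 0.57.

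Mt1 and Mt2 encode the metallothioneins, small cysteine-rich proteins that bind zinc and copper and that rise with zinc, through the factor MTF1, and with glucocorticoids. Mt1 stood at 7.88 and 7.54 with vehicle, 9.61 in AP replicate 1 and 7.82 in AP replicate 2. Mt2 stood at 5.51 and 6.07 with vehicle, 8.45 in AP replicate 1 and 5.71 in AP replicate 2. For both genes AP replicate 1 was above all other mice and AP replicate 2 lay within the vehicle range. AP replicate 1 exceeded the vehicle mean 3.74-fold for Mt1 and 6.32-fold for Mt2. AP replicate 2 was 0.11 above the vehicle mean for Mt1 and 0.08 below it for Mt2 on the log2 scale. The Mt2 signals of the AP-treated mice were 2.74 apart, the widest such gap among the 10 genes. The group differences were 1.00 for Mt1 and 1.29 for Mt2, with standard errors of 0.64 and 0.95.

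The metallothionein genes lie side by side on chromosome 8, and stretches of their starts are shown because both genes were highest in AP replicate 1 and near the vehicle level in AP replicate 2. The letters searched were TGCACNC and TGCGCNC on both strands, the core of the metal response element (MRE) to which MTF1 binds. Mt1 holds 3 in its window and Mt2 holds 4, and 25.7% of all windows hold at least 1. Capitals mark the MRE letters in RefSeq sequence of GRCm38.p6, plus strand.
Mt1, chr8:94179055-94179084: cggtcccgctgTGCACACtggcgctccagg
Mt1, chr8:94179089-94179118: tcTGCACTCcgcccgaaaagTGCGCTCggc
Mt2, chr8:94172384-94172413: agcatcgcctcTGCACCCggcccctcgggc
Mt2, chr8:94172479-94172508: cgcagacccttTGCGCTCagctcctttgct
Mt2, chr8:94172557-94172586: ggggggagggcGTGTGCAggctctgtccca
Mt2, chr8:94172611-94172640: gaattcgggtcGTGCGCAggcccaggggcg
Klf15 and Sgk1 have 1 MRE match each, and Fkbp5, Tsc22d3, Pdk4 and Errfi1 have none in these windows.

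Sgk1, Cebpd and Errfi1 did not separate the mice by treatment. Sgk1, a serum- and glucocorticoid-induced kinase that acts on sodium channels and on insulin signaling, had a signal of 3.38 and 2.17 with vehicle, and 3.14 and 2.32 with AP. Both AP-treated mice lay between the vehicle-treated mice, and Sgk1 was the only one of the 10 genes with a negative difference, −0.05 with a standard error of 0.52.

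Cebpd encodes C/EBPδ, an early factor of adipocyte differentiation that glucocorticoids induce. Its signal was 3.14 and 2.50 with vehicle, and 3.42 and 2.83 with AP. The groups overlapped, and the difference was 0.30 with a standard error of 0.35.

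Errfi1 encodes MIG6, an inhibitor of the EGF receptor family. Its signal was 3.87 and 1.88 with vehicle, and 3.36 and 2.75 with AP. The vehicle-treated mice were 1.99 apart, and both AP-treated mice lay between them. The difference was 0.18 with a standard error of 0.72.

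Sgk1 is also the gene among the 10 with a full GRE in a promoter window. A full GRE was searched as the half-site AGAACA, 3 free bases and the half-site's inverted copy, without mismatches. It was present in 3 of 32851 windows (0.00913%), and 1 of these is among the 6 windows of Sgk1, which has several annotated starts. The half-site alone was present in 19% of all windows, and among the 10 genes it was found in Sgk1 and Tsc22d3. Capitals mark the full GRE of Sgk1, which is shown because its signal did not go with the treatment.
Sgk1, chr10:21993694-21993723: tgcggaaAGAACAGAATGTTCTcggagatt
RefSeq promoter windows were at hand for 8 of the 10 genes, and Zbtb16 and Cebpd had no entry. None of the windows of the 8 genes holds TGATGCAA, the letters of the composite site of C/EBP and ATF4 factors that many ISR targets carry, which 0.895% of all windows hold.

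Over the 10 genes, 9 of 10 differences were positive, with a median of 0.97 beside 0.011 over all named genes. The AP-treated mice both exceeded the vehicle-treated mice for Klf15 and Fkbp5, which is 2 of 10, beside 20.1% of all named genes. Both were below for 0 of 10, beside 17.3% of all named genes. These shares belong to the comparison from which the genes were chosen.

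For all of the 10 genes but Klf15 and Zbtb16, the AP-treated mice were farther apart than the means of the groups. The share of all named genes with this was not counted. AP replicate 1 exceeded AP replicate 2 for 9 of 10 genes, beside 51.2% of all named genes. The median of this difference was 1.24 beside 0.012 over all named genes. For 6 of 10 genes (Fkbp5, Tsc22d3, Zbtb16, Pdk4, Mt1 and Mt2) AP replicate 1 exceeded AP replicate 2 by at least 1, beside 3.14% of all named genes. AP replicate 1 had the highest signal of the 4 mice for 7 of 10 genes, beside 26.4% of all named genes. The median of the 10 genes was 1.73 above the vehicle mean in AP replicate 1 and 0.055 above it in AP replicate 2. Without AP replicate 1, 6 of 10 differences were positive, a share that was not counted over all named genes. Vehicle replicate 1 was higher than vehicle replicate 2 for 7 of 10 genes, which is near the 59.6% of all named genes.

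**Figure D2:**
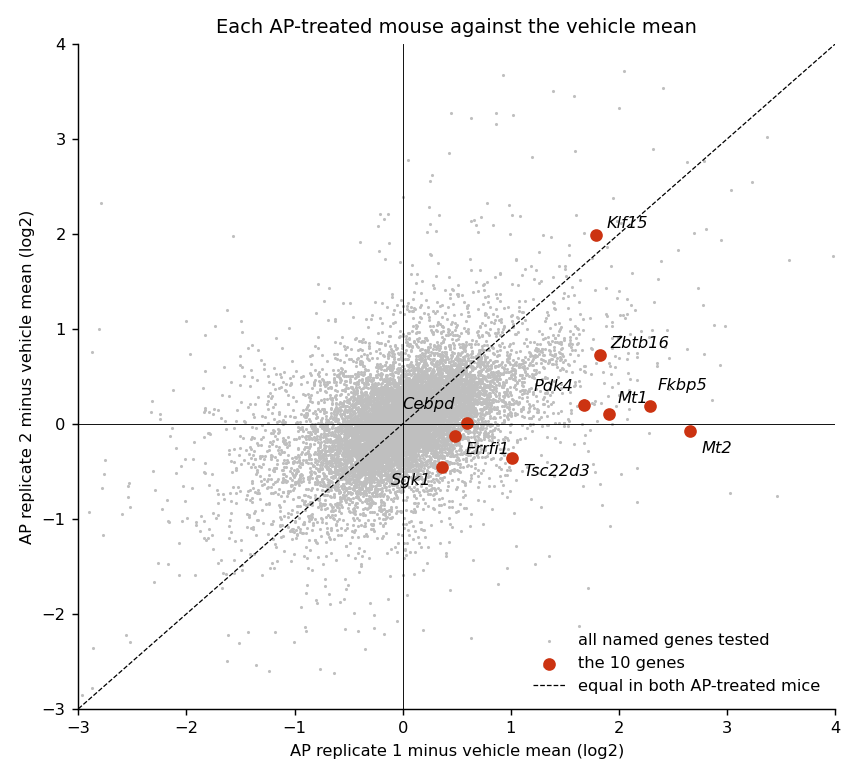
Signal of AP replicate 1 (horizontal axis) and AP replicate 2 (vertical axis) minus the vehicle mean, log2, for the 12788 named genes tested (gray, 30 of them beyond the axes) and the 10 genes (red), with the dashed line where both mice are equal. Klf15 lies near the line at 1.79 and 1.99, while Fkbp5, Mt1, Mt2 and Pdk4 lie far to the right, near 0 on the vertical axis.

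Markers of cell types differed between the mice. Summed over 10 of 10 skeletal muscle markers on the linear scale, relative to the 75th percentile, the level was 84.9 and 958 with vehicle and 605 and 346 with AP, in the order of the replicates. Vehicle replicate 2 was highest and vehicle replicate 1 lowest for each of these 10 markers. The 7 of 7 brown adipocyte markers summed to 6424 and 3970 with vehicle and 5089 and 5899 with AP. Lymphocyte and antigen presentation markers, of which 6 of 10 were measured, summed to 36.1 and 103 with vehicle and 41.5 and 39.0 with AP. The 5 of 7 macrophage markers measured summed to 30.7 and 38.2 with vehicle and 22.1 and 23.9 with AP. Only Itgam, named after its values were seen, was lower in both AP-treated mice than in both vehicle-treated mice. This is 1 of 5, beside 17.3% of all named genes. Adgre1, Csf1r, Mrc1 and Lyz2 overlapped between the groups. White adipocyte markers, 2 of 6 measured, summed to 1.78 and 12.1 with vehicle and 1.79 and 1.58 with AP. The 4 of 4 endothelial markers stood at 32.7 to 37.7 in the 4 mice, and the 5 of 5 erythroid markers at 1273 to 2390. The part of these differences in the signals of the 10 genes was not tested.

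The receptor machinery was compared to ask whether the means to respond to glucocorticoids differed between the groups. Of 12 genes for the receptors, the enzymes that activate glucocorticoids inside cells, the HSP90 cochaperones and coregulators, 10 were tested, and Nr3c2, the mineralocorticoid receptor, and Hsd11b2, which inactivates glucocorticoids, were not well above background. None of the 10 differed at an adjusted limma p of 0.05, and none had an unadjusted limma p under 0.05 in either direction, beside 3.78% of all named genes higher and 2.26% lower with AP. The largest differences were for Stip1, the HSP90 cochaperone HOP, at −0.71 (SE 0.27), and Ncor1, a corepressor, at 0.57 (SE 0.23). Stip1 stood at 2.57 and 2.20 with vehicle and at 1.88 and 1.46 with AP, and Ncor1 at 1.23 and 1.45 with vehicle and at 2.04 and 1.79 with AP. The median over the list was −0.04.

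The receptor gene itself and the activating enzyme 11β-HSD1 were looked up after the values had been seen. Nr3c1 had a signal of 4.07 and 4.42 with vehicle, and 4.42 and 4.40 with AP. Hsd11b1 had a signal of 6.31 and 5.63 with vehicle, and 5.43 and 5.90 with AP. Both overlapped between the groups.

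Of 20 other genes known to be induced by glucocorticoids, 19 were tested, and 12 had a positive difference with a median of 0.07. None passed the adjusted threshold of limma, and 3 of 19 had an unadjusted limma p under 0.05, all higher with AP, beside 3.78% of all named genes higher and 2.26% lower. These were Klf9, a Krüppel-like factor induced by glucocorticoid and thyroid hormone, Cdkn1a, the cell cycle inhibitor p21, and Irs2, an adaptor of the insulin receptor. Klf9 stood at 3.20 and 2.66 with vehicle and at 3.99 and 4.05 with AP, a difference of 1.09 (SE 0.27). Cdkn1a stood at 3.61 and 2.50 with vehicle and at 4.56 and 4.72 with AP, a difference of 1.59 (SE 0.42). Irs2 stood at 1.55 and 2.36 with vehicle and at 3.32 and 2.79 with AP, a difference of 1.10 (SE 0.37). The groups did not overlap for any of these 3, which were picked by their unadjusted p, and the adjusted limma p was 0.80 for each. Over the whole list, the groups were apart for 4 of 19 genes with AP higher and for 1 with AP lower. The shares of all named genes were 20.1% and 17.3%.

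Other genes of this list differed between the AP-treated mice, and the next 3 were chosen after their values were seen. Ddit4, an inhibitor of mTORC1 that glucocorticoids and stress both induce, stood at 4.60 and 3.95 with vehicle, 6.19 in AP replicate 1 and 3.20 in AP replicate 2. Per1, a clock gene with a well-known GRE, stood at 3.60 and 2.54 with vehicle, 4.10 in AP replicate 1 and 2.13 in AP replicate 2. Dusp1, a phosphatase of MAP kinases, went the other way, at 2.89 and 2.82 with vehicle, 1.18 in AP replicate 1 and 2.92 in AP replicate 2. AP replicate 1 had the highest signal for 7 of the 19 genes, beside 26.4% of all named genes.

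Of 22 other fasting genes, 21 were tested, 16 had a positive difference and the median was 0.25. None passed the adjusted threshold, and 4 of 21 had an unadjusted limma p under 0.05, all higher with AP, beside the same 3.78% and 2.26% of all named genes. Pck1, the key enzyme of gluconeogenesis and of glycerol synthesis in fat, stood at 7.12 and 7.97 with vehicle and at 9.19 and 8.70 with AP, a difference of 1.40 (SE 0.38). Bnip3, a receptor for the removal of mitochondria, stood at 7.08 and 6.54 with vehicle and at 8.26 and 7.88 with AP, a difference of 1.26 (SE 0.30). Acot2, a mitochondrial thioesterase, stood at 1.17 and −0.12 with vehicle and at 1.74 and 2.05 with AP, a difference of 1.37 (SE 0.48). Fbxo32 encodes atrogin-1, a ubiquitin ligase known from muscle wasting. It stood at −1.93 and −1.43 with vehicle and at −0.06 and −0.69 with AP, a difference of 1.31 (SE 0.33), beside the muscle marker sums given above. The groups did not overlap for any of these 4, which were likewise picked by their unadjusted p, and the adjusted limma p was 0.80 for each. Over the whole list, the groups were apart for 5 of 21 genes with AP higher and for 2 with AP lower, beside 20.1% and 17.3%. AP replicate 1 had the highest signal for 10 of 21 genes, beside 26.4% of all named genes. It exceeded AP replicate 2 by at least 1 for 5 of 21, beside 3.14%, and the opposite case was not counted. Fgf21, a fasting hormone that ISR factors also induce, was named after its values were seen and stood at −0.44 and −2.46 with vehicle, −1.36 in AP replicate 1 and 2.98 in AP replicate 2.

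A list of 10 genes linked to KLF15 was drawn up from general knowledge, and control by KLF15 was not checked for each. All 10 were tested, with a median of −0.02, and none passed the adjusted threshold. At an unadjusted limma p under 0.05, 2 of 10 were higher and 1 of 10 was lower with AP, beside 3.78% and 2.26% of all named genes. Hpd and Aass were kept by the filter only through the group where each was brighter, so their place in the counts depends on the filter. With only probes well above background on all 4 arrays, 1 gene of the list was under that p. Gpt2, the mitochondrial alanine aminotransferase, stood at −0.14 and 0.08 with vehicle and at 0.75 and 0.80 with AP, a difference of 0.81 (SE 0.21). Hpd, an enzyme of tyrosine breakdown, stood at −2.94 and −4.63 with vehicle and at −1.80 and −1.65 with AP, and it was well above background in 1 of 2 vehicle-treated mice. Aass, the first enzyme of lysine breakdown, was not well above background in either AP-treated mouse and was at least 1.16-fold higher with vehicle, a direction that did not hold with another background correction. Named after their values were seen, the branched-chain enzymes Bcat2 and Bckdha, the insulin-responsive glucose transporter Slc2a4 and Acss2 overlapped between the groups. The groups did not overlap for 2 of 10 genes with AP higher (Gpt2 and Hpd) and for 2 of 10 with AP lower (Aass and the alanine aminotransferase Gpt), shares near the 20.1% and 17.3% of all named genes.

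Among 16 other Krüppel-like factors, 10 were tested and the median difference was −0.01. Klf9, described above, was the only one of 10 with an unadjusted limma p under 0.05, beside 3.78% of all named genes higher and 2.26% lower. The groups did not overlap for 1 of 10 with AP higher (Klf9) and for 1 of 10 with AP lower (Klf4, named after its values were seen). The shares of all named genes were 20.1% and 17.3%.

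Of 22 relatives and partners of the 10 genes, 19 were tested, with a median of 0.06. At an unadjusted limma p under 0.05, 1 was higher and 1 lower with AP, beside 3.78% and 2.26% of all named genes. These were Sgk2 and Mt4, kept by the filter only through the group where each was brighter. With only probes well above background on all 4 arrays, 0 genes of the list were under that p. Sgk2, a relative of Sgk1, stood at −5.90 and −2.93 with vehicle and at 0.67 and −2.07 with AP. It was well above background in 1 of 2 vehicle-treated mice, and its difference of 3.71 ranged from 2.23 (without vehicle replicate 1) to 5.20 (without vehicle replicate 2) when a mouse was left out and was 1.27 with normexp background correction. Mt4, a metallothionein known from squamous epithelium, was not well above background in either AP-treated mouse and was at least 1.66-fold lower with AP, whereas with normexp background correction the log2 difference was −0.15. The groups did not overlap for 2 of the 19 with AP higher (Sgk2 and the C/EBP relative Cebpg) and for 3 with AP lower (Mt4, its relative Mt3 and Tsc22d1, a relative of Tsc22d3), beside 20.1% and 17.3% of all named genes. The others, among them the zinc sensor Mtf1, the kinases Pdk1, Pdk2 and Pdk3 and the phosphatases Pdp1 and Pdp2 that oppose PDK4, overlapped. Genes of this list other than Sgk2 and Mt4 were named after their values were seen.

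**Figure D3:**
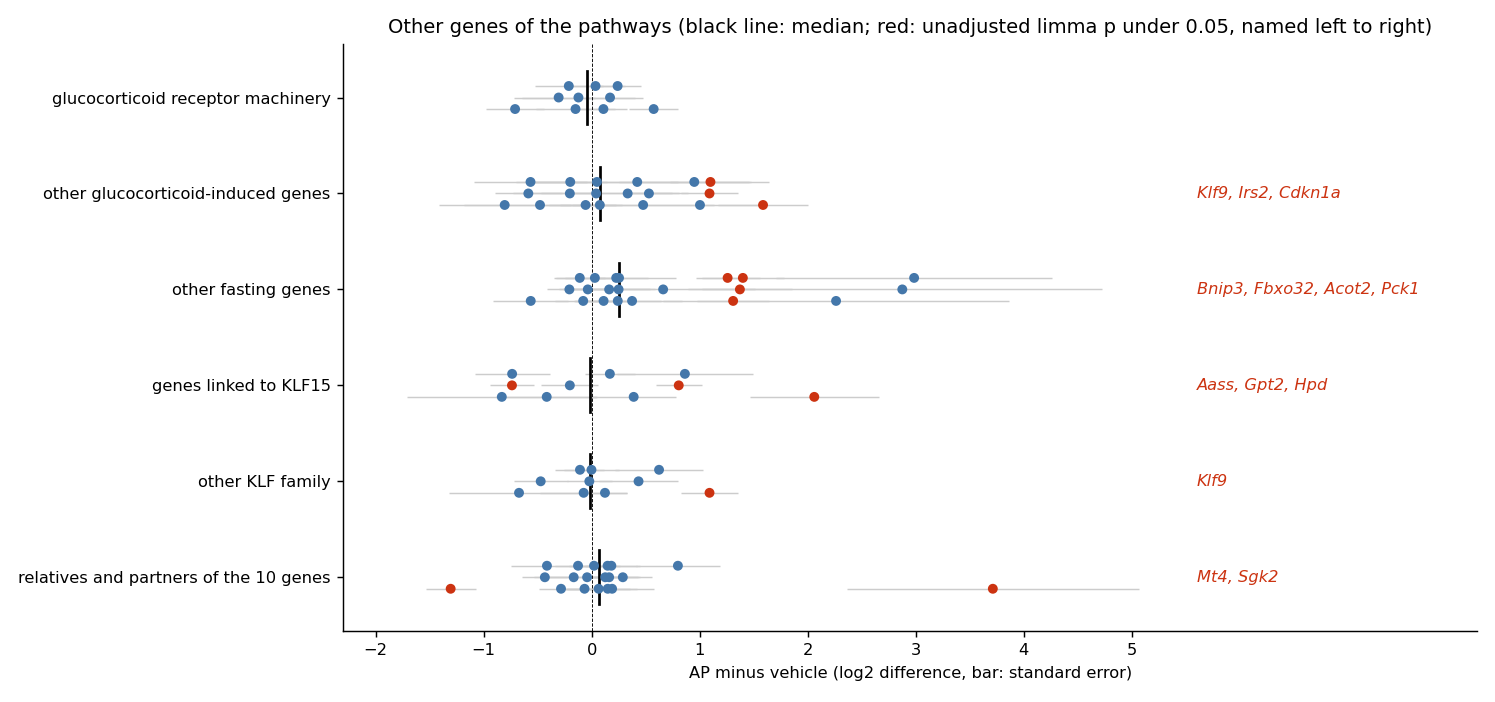
Log2 difference between AP- and vehicle-treated mice (horizontal axis, bars are standard errors of the limma fit) for each tested gene of the 6 lists, with the list median as a black line. Red points have an unadjusted limma p under 0.05 and are named from left to right, and none passed adjustment. Aass and Mt4 were not well above background with AP.

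The genes with the pattern most like Klf15 were found by the Euclidean distance between log2 signals over the 4 arrays, each gene centered on its own mean, among 12135 genes well above background on all 4 arrays. The nearest were Ssh2, a phosphatase that activates cofilin, at a distance of 0.17, N4bp2l1 at 0.30, the snoRNA host genes Snhg1 at 0.34 and Snhg12 at 0.35, and Gm10638 at 0.49. All 5 were high in both AP-treated mice. None of the other 9 genes came nearer to Klf15 than 1.56, the distance of Pdk4. The distance from 4 points is a description and has no test.

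The same distance was taken from Fkbp5 after the values of the 10 genes had been seen. Pbld2 was nearest at 0.19, followed by Mt1 at 0.32, Igfals at 0.32, Dzank1 at 0.35 and Ehhadh, a peroxisomal enzyme of fatty acid oxidation, at 0.38. Of the other genes described here, Mt2 lay at 0.80, Pdk4 at 0.91, Tsc22d3 at 1.08 and Zbtb16 at 1.15 from Fkbp5, and Klf15 lay at 1.79.

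**Figure D4:**
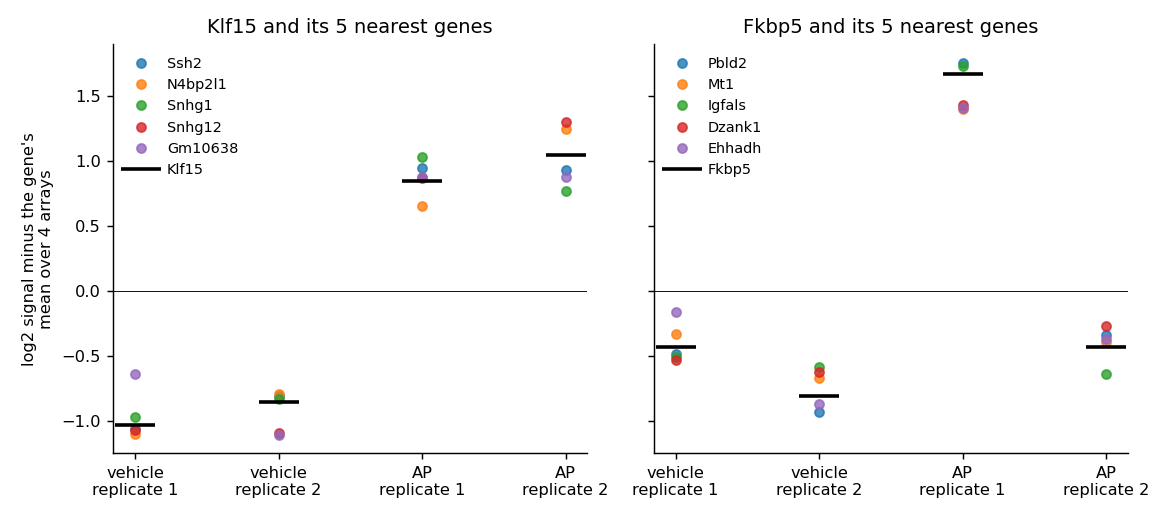
Log2 signal minus each gene's own mean over the 4 arrays, for Klf15 with its 5 nearest genes (left) and for Fkbp5 with its 5 nearest genes (right), 1 column for each mouse. Klf15 and its neighbors are high in both AP-treated mice, and Fkbp5 and its neighbors in AP replicate 1 alone.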

How the data were processed

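BAT RNA of 2 vehicle- and 2 AP-treated Tg mice was hybridized to one-color Agilent SurePrint G3 Mouse arrays. The deposited files hold the intensity of each spot on a linear scale, background-subtracted by the authors with Agilent Feature Extraction 10.7.1.1 (per the submitters' processing notes), and no normalization between arrays. The deposited spot flags (well above background, saturated, outlier; unit other) were used as filters. The authors also deposited a table of log2 values of the same arrays, whose normalization and centering are not stated. Differences between arrays correlated between this table and the log2 intensities, with Pearson's r at least 0.9986 over 29061 probes, and its column medians were −0.284, −0.160, −0.438 and −0.293. It served as an alternative.

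From each array's log2 processed signal its own 75th percentile was subtracted. Control and outlier-flagged spots were left out, and spots of a probe were averaged. Probes well above background in both arrays of at least 1 group were kept, 24973 of 55681, and tested in limma 3.58.1 (R 4.3.3; lmFit, eBayes) with Benjamini-Hochberg adjustment at 0.05. The script was tested on simulated data. Of the 55681 probes, 26576 were named through a RefSeq table of GRCm38.p6, used for names and promoter windows only, since the array design names mm9. For a gene with several probes the brightest was used. A mouse is a sample, and p values measure the spread between 2 mice per group, so the number of arrays limits the precision. Arrays of a group were not copies of each other, with Pearson's r of 0.972 for vehicle and 0.981 for AP.

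The 10 genes and the lists were chosen with earlier results of these data known. The text names the 10 genes, the genes of each list with an unadjusted limma p under 0.05 (or, where there were none, the 2 with the largest differences), the 5 genes nearest to Klf15, and Ddit3 and Trib3 as a check of the treatment, and it says where other genes were chosen after their values were seen. A probe not well above background in a whole group has only a bound: the mean of the brighter group was set against, for each array of the dimmer group, the higher of the lowest signal among probes well above background and the probe's own. Alternatives were normexp background correction (offset 50, on the median spot signal, the column at hand), quantile normalization, the array median, other filters on dim probes, the authors' log2 table, a variance trend, a replicate block, each mouse left out in turn, a gene's probes averaged, and the methods' t-test. A block for slide or scan could not be run, since there was 1 slide and 1 scan. The replicate numbers are not stated to pair mice.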

Additional observations from a re-analysis of the deposited data

How the results depend on the processing

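No probe passed the adjusted limma p in any alternative, with 1003 to 2610 probes under an unadjusted p of 0.05, and no gene of the 6 lists passed it. Leaving out 1 mouse moved the median difference of the 10 genes from 0.97 to between 0.055 (without AP replicate 1) and 1.73 (without AP replicate 2), and to 0.64 without vehicle replicate 2. The difference of Klf15 lay between 1.63 and 1.99 over 13 alternatives. The filters, the blocks and the averaging of probes could not change it, since its 1 probe passes each filter and the blocks are balanced. It was 1.63 with normexp and 1.73 with the authors' table, beside 1.89. The sign turned for Sgk1 in 3 alternatives, for Errfi1 in 2 and for Tsc22d3, Mt2 and Cebpd in 1 each. Aass turned from −0.74 to 0.013 under normexp, and 3 of the 5 genes nearest to Klf15 were kept there. The cause was not tested. With the authors' table the median difference of all probes was −0.17, beside −0.012 in the main setting, and the median for the 10 genes was 0.81. Same-numbered mice deviated from their group means with a correlation of −0.129 across probes. With 2 mice per group this cannot tell whether the numbers pair the mice. The replicate block gave 0 calls with 1226 unadjusted. The crossed pairing, added after seeing the data, gave 0 with 1566. The methods' t-test gave 1478 probes unadjusted and 0 after Benjamini-Hochberg. With 2 mice per group, small differences were not detectable, and large ones did not pass adjustment either. Trib3, with a difference of 4.57, had an adjusted limma p of 0.80.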
